A study of Mus musculus with 7 samples.

Results

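The interferon response genes described here are 41 listed genes that cells switch on after sensing interferon. They were found among the probes of an Agilent 1-colour mouse array by gene name or by the current symbol of the probe's accession. A probe was present for 40 of them (Xaf1 was not matched to one), out of 27583 genes and unnamed probes on the array, and all 40 passed the filter on dim signal. The RNA came from C57BL/6 cells of 3 kinds. Mouse embryonic fibroblasts (MEF) were prepared individually as 3 samples from embryos at 13.5 days after coitus. Induced hepatocyte-like cells (iHep), which are cells derived from such fibroblasts, came as 3 types labelled 4α1, 4α2 and 4α3, called types 1, 2 and 3 below, with 1 array each. Hepatocytes from adult mouse liver had 1 array. The labels do not give the factors, passage or number of lines behind each iHep type, nor whether the hepatocytes were pooled from several animals.

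Interferons are secreted proteins that warn cells of infection. Type I interferons, such as interferon beta, bind Ifnar1 and Ifnar2, and type II interferon binds Ifngr1 and Ifngr2. Type I signalling assembles a factor that includes Stat2 and Irf9 and binds the interferon-stimulated response element (ISRE), whereas type II signalling acts at the gamma-activated site (GAS). The induced genes include nucleic acid sensors, RNA-degrading enzymes and GTPases that block viruses and intracellular parasites, and fibroblasts and hepatocytes are both able to mount this response.

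In the text below, a level is the log2 signal of a probe minus the 75th percentile of its array, so a level of 0 is that percentile, and levels are compared between arrays for 1 probe at a time. MEF-1 shared a slide with the 3 iHep arrays, MEF-2 and MEF-3 shared another slide, and the hepatocyte array was alone on the third, so hepatocyte and slide cannot be told apart. MEF-2 and MEF-3 differed by less than repeated spots of 1 probe do (0.53 to 0.88 times), while MEF-1 differed from them by 2.72 to 4.31 times that noise. MEF-2 and MEF-3 were therefore counted as 1 sample, which left 2 MEF samples, 3 iHep samples and 1 hepatocyte sample. The 75th percentile signal ran from 608.2 to 1483.6 over the arrays, and the share of probes well above background from 60.2 to 68.7%. The p-values measure the spread between these few samples, and for iHep that spread is the one between types. As for the labelled cell types, 15 of 15 fibroblast markers were well above background on each MEF array, 14 or 15 on the iHep arrays and 12 on the hepatocyte array, and 12 of the 15 fell in iHep and 14 in hepatocytes against MEF. Of the hepatocyte markers, 14 of 14 were well above background on the hepatocyte array. On the iHep arrays 12 or 13 were, and on the MEF arrays 4 or 5. Their median level was 8.04 on the hepatocyte array, -0.72 to 0.11 on the iHep arrays and -7.94 to -7.28 on the MEF arrays. In iHep against MEF, 8 of the 14 rose and 1 fell.

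Of the 40 genes, 15 rose in iHep against MEF and 0 fell (limma, Benjamini-Hochberg adjusted p under 0.05), where 10.1% of the 19135 genes tested were called higher and 13.2% lower. At an unadjusted p under 0.05, limma counted 21 higher and 0 lower, where 3236 and 4075 of the 19135 genes tested were. The median change of the 40 genes was 1.89 on the log2 scale, against -0.04 for all genes tested. All 3 iHep arrays lay above all 3 MEF arrays for 24 genes and below them for 0, where 24.9% and 31.3% of all genes tested did so. The genes that rose were Irf7, Ifih1, Dhx58, Ifi204, Oas1a, Oas2, Oas3, Oasl2, Mx1, Mx2, Isg20, Ifi47, Ifi35, Parp9 and Parp14. Within the slide that held MEF-1 and the iHep arrays, the median was 1.35, against -0.05 over all genes tested. Irf7, Ifi204, Oasl2, Mx2, Ifi47, Ifi35, Parp9 and Parp14 lost their call there. Without MEF-1, the median was 2.51, against -0.05 over all genes tested, and Ifi204, Mx2, Ifi47 and Ifi35 lost their call. Both fits hold 1 MEF sample and called fewer genes over all genes tested as well. In bulk RNA, a lower share of cells that express a gene and less of its RNA per cell cannot be told apart.

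**Figure D1:**
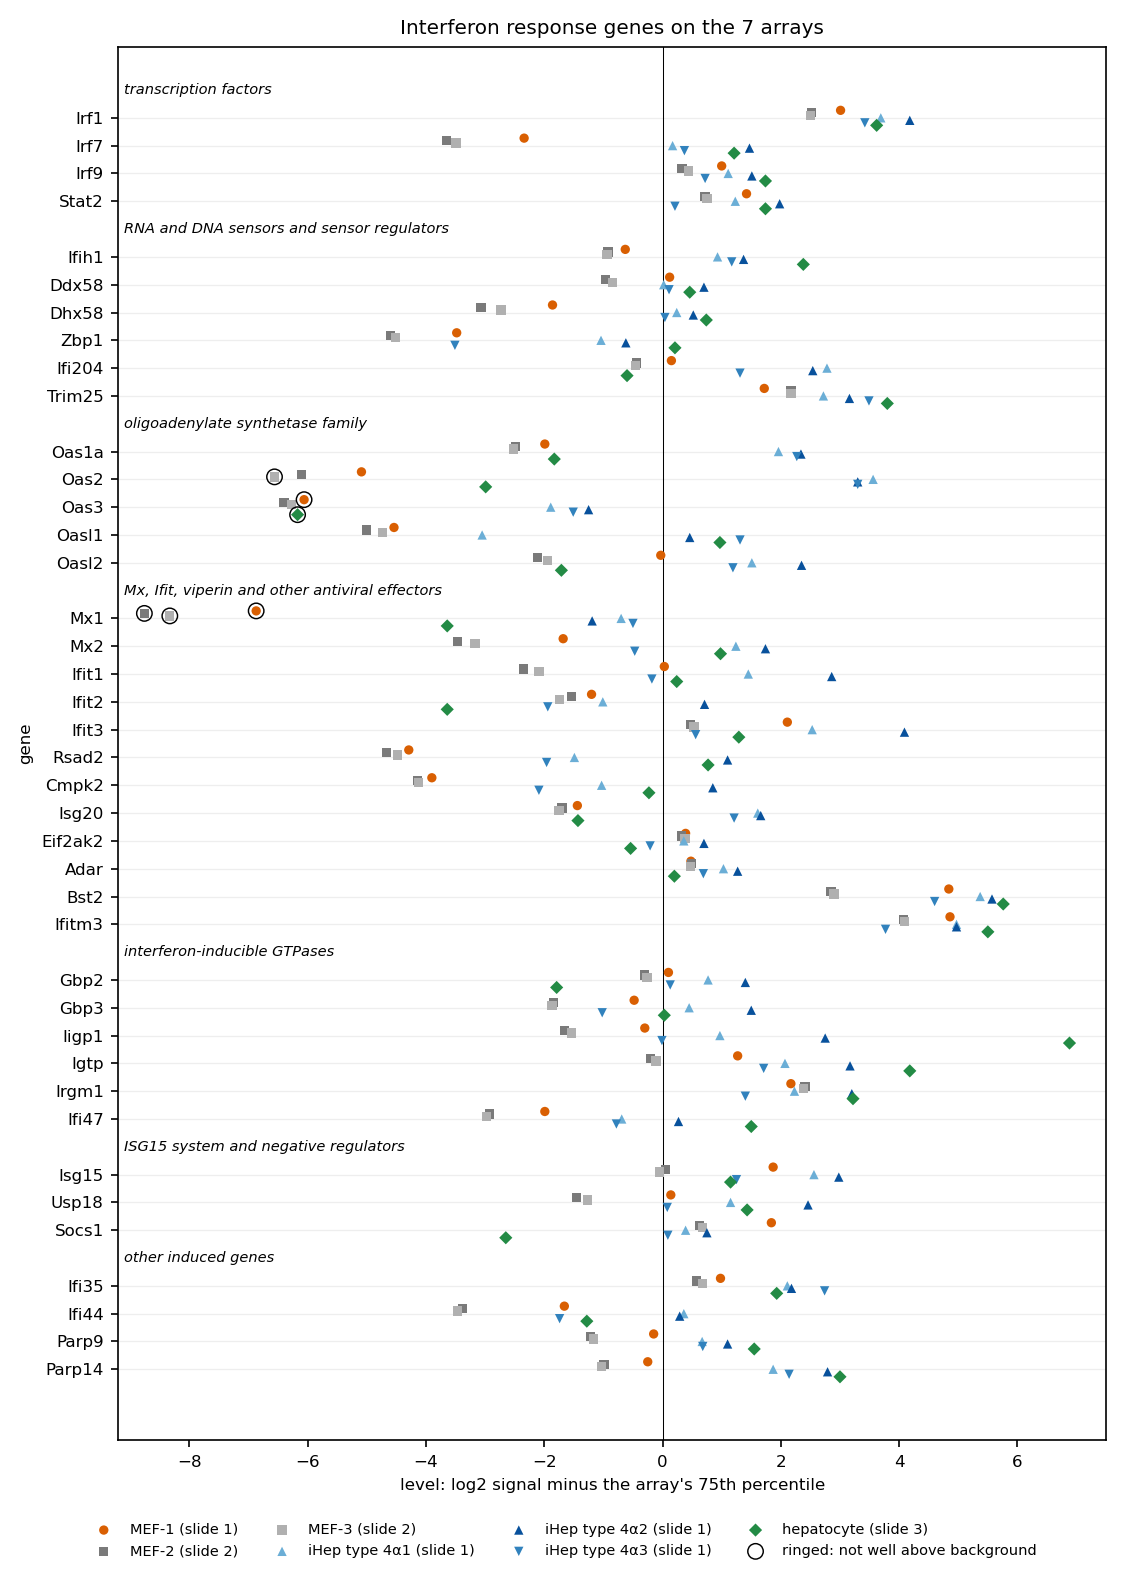
Level of each of the 40 genes (log2 signal minus the array's 75th percentile, horizontal axis) on the 7 arrays, in groups by role, with points of 1 gene spread vertically so that none is hidden and rings around arrays not well above background. The 3 iHep arrays of Oas1a, Oas2, Oas3, Mx1 and Isg20 sit close together and right of every MEF array, whereas those of Ifit1, Ifit3, Rsad2 and Cmpk2 are spread out.

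In adult hepatocytes against MEF, 16 of the 40 genes were higher and 1 lower (limma), where 28.4% of all genes tested were called higher and 25.1% lower. The median change was 1.23, against 0.14 over all genes tested. Irf7, Ifih1, Dhx58, Oas2, Mx1, Mx2, Ifi47, Parp9 and Parp14 were called in both comparisons. Zbp1, Trim25, Oasl1, Rsad2, Cmpk2, Iigp1 and Igtp were called in hepatocytes and missed the threshold in iHep, and Socs1 was the gene that fell. Both comparisons use the same MEF arrays, so they are not independent, and the fit gave the single hepatocyte sample the spread of the other kinds. Without MEF-1, the median hepatocyte change was 1.76, against 0.13 over all genes tested. The calls of Zbp1, Trim25, Oasl1, Mx2, Rsad2 and Cmpk2 were lost there, in a fit with 1 MEF sample. The hepatocyte array lay above all 6 other arrays for 13 genes, where 39.6% of all genes tested did, and below them for 6, where 32.3% did.

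The difference between iHep and hepatocyte was tested directly in the same fit. In iHep, 9 genes were higher and 3 lower, where 22.1% and 27.1% of all genes tested were called. The genes higher in iHep were Ifi204, Oas1a, Oas2, Oas3, Oasl2, Mx1, Isg20, Gbp2 and Socs1, and the genes lower in iHep were Ifih1, Iigp1 and Ifi47. The median over the 40 genes was -0.16, against -0.17 over all genes tested, and with quantile scaling these were 0.11 and 0.02.

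**Figure D2:**
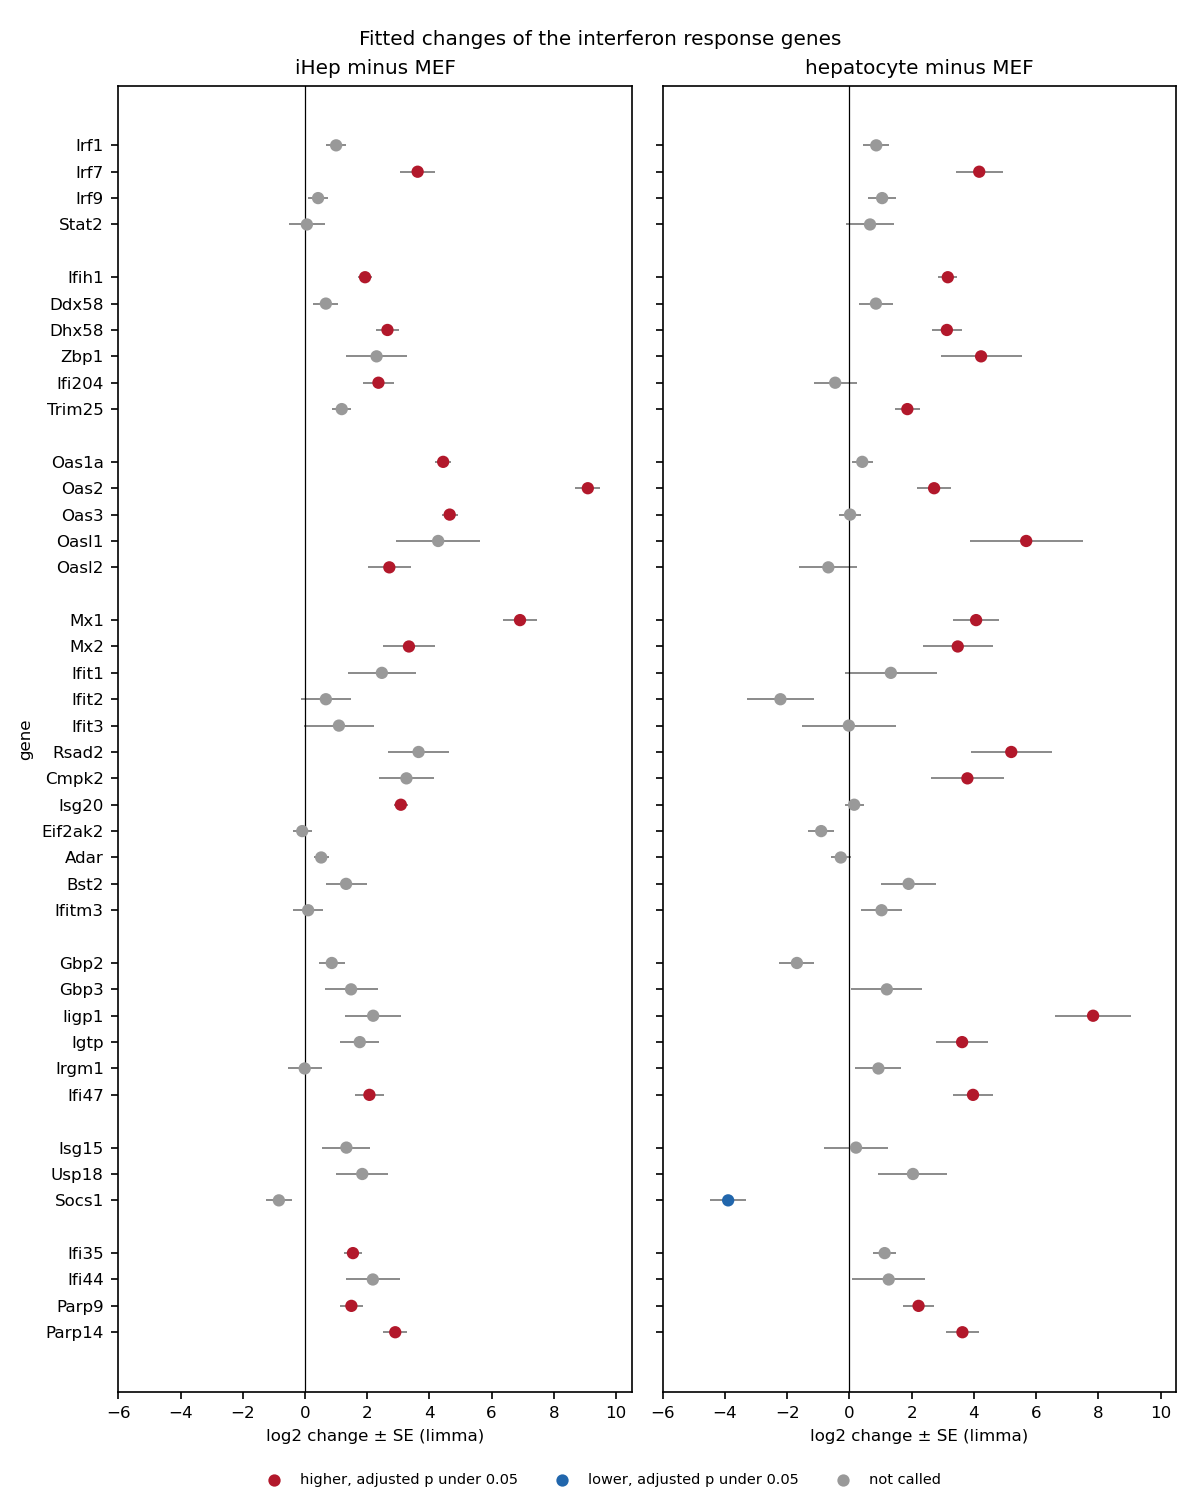
Fitted log2 change with its standard error (SE) for each of the 40 genes, iHep minus MEF on the left and hepatocyte minus MEF on the right, with red for higher and blue for lower at an adjusted p under 0.05. Oas2 lies farthest right in the iHep panel at 9.09 and Iigp1 in the hepatocyte panel at 7.83, and Socs1 is the single blue point at -3.90.

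Promoters are shown because the ISRE and GAS sequences are where the interferon-activated factors bind. RefSeq promoter sequence (build GRCm38.p6) was held for 31 of the 41 genes. The 250 bases upstream of the start were searched on both strands for the ISRE core (GAAA, a pair of bases of any kind, then GAAA) and for the GAS sequence TTCNNNGAA, where N is any base. The ISRE core was found in 13 of 31 genes (41.9%), against 3.5% of 27025 genes with a promoter in the same table. It stood in 2 of the 8 genes with a promoter that rose in iHep against MEF, Oas3 and Oas1a, and in 11 of the 22 that were tested and not called, namely Bst2, Gbp2, Gbp3, Ifit1, Ifit3, Igtp, Irgm1, Isg15, Rsad2, Socs1 and Stat2. The other genes that rose, Dhx58, Ifi204, Oas2, Mx1, Mx2, Parp9 and Parp14, had no promoter sequence. These counts thus leave out Oas2 and Mx1, the genes with the largest iHep changes, and a difference between them was not tested. The GAS sequence was found in 7 of 31 genes (22.6%), against 8.1% of all genes, and these were Bst2, Eif2ak2, Ifit2, Igtp, Irf1, Isg20 and Oas1a. A match in these letters is a description of the sequence and no evidence of binding in these cells.

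Stretches around matches are printed 5′ to 3′ on the strand of the gene, with the ISRE core (or its reverse complement) in capitals. Oas3 (chr5:120777700-120777759, minus strand) and Oas1a (chr5:120907526-120907570, minus strand) come first, as the genes that rose in iHep and held the core. The other genes were chosen after their values were seen. Isg15 (chr4:156200862-156200921, minus strand), Ifit1 (chr19:34640760-34640819, plus strand), Gbp3 (chr3:142559974-142560033, plus strand) and Rsad2 (chr12:26456538-26456597, minus strand) are shown because their levels differed widely between arrays. Socs1 (chr16:10785585-10785644, minus strand) is shown as the gene that fell in hepatocytes, and Igtp (chr11:58199497-58199555, plus strand) as one whose promoter held both sequences.
Oas3: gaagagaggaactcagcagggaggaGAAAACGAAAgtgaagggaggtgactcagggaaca
Oas1a: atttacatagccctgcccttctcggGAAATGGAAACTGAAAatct
Isg15: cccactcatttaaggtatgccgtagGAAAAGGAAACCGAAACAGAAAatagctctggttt
Ifit1: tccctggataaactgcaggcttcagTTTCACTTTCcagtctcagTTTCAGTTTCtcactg
Gbp3: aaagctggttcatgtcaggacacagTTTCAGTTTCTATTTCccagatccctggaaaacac
Rsad2: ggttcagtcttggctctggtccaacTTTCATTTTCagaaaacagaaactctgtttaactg
Socs1: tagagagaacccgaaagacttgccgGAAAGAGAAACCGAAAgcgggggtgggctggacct
Igtp: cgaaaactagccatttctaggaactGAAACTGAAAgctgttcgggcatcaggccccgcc

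Matches overlapped in Isg15 (first bases at -78, -72 and -66 from the start), Oas1a (-20 and -14), Gbp3 (-45 and -39) and Socs1 (-83 and -77), and 2 separate matches stood in Ifit1 (-104 and -85). The Oas3 match began at -75, the Rsad2 match at -120 and the Igtp match at -34. In Igtp the GAS sequence began at -45, next to the ISRE core. The core is thus present upstream of genes that were even between iHep types, such as Oas1a, and of genes that varied, such as Ifit1.

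**Figure D3:**
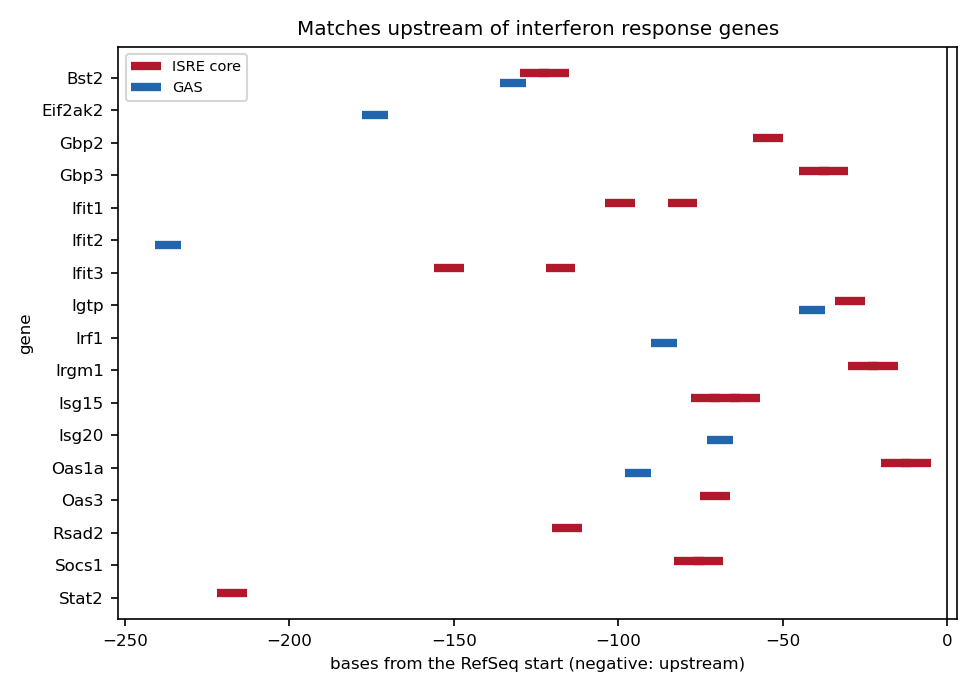
Positions of ISRE core matches (red) and GAS matches (blue) in the 250 bases upstream of the RefSeq start (0 on the horizontal axis) for the genes that hold at least 1 match. The Oas1a pair of ISRE bars, at -20 and -14, lies closest to the start, and the Ifit2 bar, at -241, farthest from it.

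Among the 4 transcription factors of the response, Irf7 rose in both iHep and hepatocytes and the other 3 were not called in either comparison. Irf7 is the interferon regulatory factor that amplifies type I interferon production. Its level (chr7:141116085-141116435, array annotation, build mm8, as for all probe positions below) was -2.34, -3.65 and -3.49 on MEF-1, MEF-2 and MEF-3, 0.17, 1.47 and 0.37 on iHep types 1, 2 and 3, and 1.21 on the hepatocyte array. Every iHep array and the hepatocyte array lay above every MEF array. The change was 3.62 ± 0.56 (SE) in iHep (adjusted p = 0.0129) and 4.17 ± 0.76 in hepatocytes (adjusted p = 0.00874), and within the iHep slide the iHep change was 3.01 with an adjusted p of 0.073. Irf1, which drives targets of type II interferon, Irf9 and Stat2, the DNA-binding and activating subunits of the ISRE factor, had iHep changes of 0.06 to 1.0 and hepatocyte changes of 0.66 to 1.05. For Irf9 and Stat2 the iHep and MEF arrays overlapped.

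Of the 6 sensors and sensor regulators, 3 rose in iHep (Ifih1, Dhx58 and Ifi204) and 4 in hepatocytes (Ifih1, Dhx58, Zbp1 and Trim25). Ifih1 (MDA5), a cytosolic sensor of long double-stranded RNA (chr2:62398403-62398462), stood at -0.63, -0.92 and -0.94 on the MEF arrays, 0.93, 1.37 and 1.17 on the iHep arrays and 2.38 on the hepatocyte array. The 3 cell kinds did not overlap. Ifih1 rose by 1.93 ± 0.23 in iHep (adjusted p = 0.0061) and by 3.16 ± 0.30 in hepatocytes (adjusted p = 0.00128), and iHep lay below hepatocyte by a change of -1.22 ± 0.29 (adjusted p = 0.0211, not called without iHep type 1). Dhx58 (LGP2), a helicase that tunes RNA sensing (chr11:100511047-100511106), had levels of -1.86, -3.07 and -2.73 in MEF, 0.24, 0.52 and 0.04 in iHep, and 0.74 in hepatocytes. Its iHep change was 2.65 ± 0.37 (adjusted p = 0.00973) and its hepatocyte change 3.13 ± 0.49 (adjusted p = 0.00571), with the iHep types within 0.48 of each other. The iHep and hepatocyte levels of Dhx58 differed by -0.48 ± 0.47 (adjusted p = 0.428).

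Ifi204, a member of the p200 family of DNA sensors (chr1:175585909-175585968), was high in iHep alone. Its levels were 0.15, -0.44 and -0.46 on the MEF arrays, 2.78, 2.54 and 1.31 on the iHep arrays and -0.60 on the hepatocyte array. It rose by 2.36 ± 0.51 against MEF (adjusted p = 0.0317) and by 2.81 ± 0.65 against hepatocyte (adjusted p = 0.0201), although the first call was lost within the iHep slide (2.06, adjusted p = 0.166) and without MEF-1 or iHep type 1 or 2. Zbp1, a sensor of Z-form nucleic acids (chr2:172849549-172849608), split the iHep types. It read -3.48, -4.6 and -4.52 in MEF, -1.04 and -0.62 in iHep types 1 and 2 but -3.51 in type 3, and 0.21 in hepatocytes. The hepatocyte change was 4.23 ± 1.30 (adjusted p = 0.0432, not called without MEF-1 or iHep type 1), and the iHep change of 2.30 ± 0.97 had an adjusted p of 0.152. Trim25, the ubiquitin ligase that activates RIG-I (chr11:88835981-88836040), stood at 1.72, 2.17 and 2.17 in MEF, 2.72, 3.16 and 3.49 in iHep and 3.80 in hepatocytes. It rose in hepatocytes by 1.86 ± 0.41 (adjusted p = 0.016), a call lost without MEF-1, and the iHep change of 1.18 ± 0.31 fell just outside the threshold (adjusted p = 0.0501). Ddx58 (RIG-I), the sensor of short RNA with a triphosphate end, was not called, at 0.67 in iHep and 0.85 in hepatocytes.

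The oligoadenylate synthetase family had a median change of 4.44 in iHep, the highest of the role groups. The enzymes Oas1a, Oas2 and Oas3 make 2-5A, the messenger that activates RNase L, in response to double-stranded RNA, and Oasl1 and Oasl2 are related proteins. In iHep 4 of the 5 rose (all but Oasl1) and in hepatocytes 2 of the 5 (Oas2 and Oasl1). Oas2 (chr5:120991042-120991101) had levels of -5.09, -6.10 and -6.56 on the MEF arrays, of which MEF-3 was not well above background. It read 3.56, 3.30 and 3.30 on the iHep arrays and -2.99 on the hepatocyte array. The iHep types lay within 0.26 of each other and far above both other cell kinds. The change was 9.09 ± 0.40 in iHep against MEF (adjusted p = 0.000582, 546-fold), 2.72 ± 0.54 in hepatocytes against MEF (adjusted p = 0.0118) and 6.38 ± 0.51 in iHep against hepatocyte (adjusted p = 0.000881). With normexp background correction, which adds an offset of 50 to every signal, the changes were 6.66 in iHep and 1.09 in hepatocytes against MEF, both still called, so the fold depends on the background correction. A dimmer Oas2 probe was also higher on every iHep array, but it was not well above background on the MEF and hepatocyte arrays and gives no size.

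Oas1a (chr5:121158956-121159015) stood at -1.99, -2.49 and -2.52 in MEF, 1.96, 2.34 and 2.27 in iHep and -1.83 in hepatocytes. The hepatocyte array was thus near the MEF arrays, while all iHep types were high. Oas1a rose by 4.44 ± 0.25 in iHep against MEF (adjusted p = 0.000988) and by 4.03 ± 0.32 against hepatocyte (adjusted p = 0.000843), and the hepatocyte change was 0.41 ± 0.34 (adjusted p = 0.343). Oas3 (chr5:121017575-121017634) had the same order, with -6.06, -6.40 and -6.27 in MEF, -1.89, -1.25 and -1.51 in iHep and -6.17 in hepatocytes. MEF-1 and the hepatocyte array were not well above background for it. The Oas3 change was 4.65 ± 0.26 in iHep against MEF (adjusted p = 0.000986). In iHep it was at least 18.5-fold higher than in hepatocyte, where "at least" sets the dim array at the lowest signal called above background. With normexp correction the change against MEF was 2.18. A second Oas3 probe was well above background on the iHep arrays alone and gives no size.

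Oasl2 (chr5:115173158-115173217) was -0.03 on MEF-1 but -2.11 and -1.95 on MEF-2 and MEF-3, with 1.51, 2.35 and 1.19 in iHep and -1.71 in hepatocytes. It rose in iHep by 2.71 ± 0.69 against MEF (adjusted p = 0.0482) and by 3.39 ± 0.87 against hepatocyte (adjusted p = 0.0282). Within the iHep slide its change against MEF-1 was 1.72 (adjusted p = 0.152), and the call was also lost without MEF-3 or without any 1 of the iHep types. Against hepatocyte it was lost without iHep type 1 or 2. Oasl1 (chr5:115198546-115198605) was the most uneven gene between iHep types. It read -4.54, -5.00 and -4.74 in MEF, -3.05 in type 1, 0.46 in type 2, 1.31 in type 3 and 0.97 in hepatocytes. The hepatocyte change was 5.68 ± 1.81 (adjusted p = 0.048), a call lost without MEF-1 or without iHep type 2, and the iHep change of 4.28 ± 1.35 had an adjusted p of 0.0814. Oas1a belongs to a cluster of close copies, as do Ifit3, Ifi204 and the Gbp genes, and cross-hybridisation between copies was not tested.

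Among the 12 other antiviral effectors, 3 rose in iHep (Mx1, Mx2 and Isg20) and 4 in hepatocytes (Mx1, Mx2, Rsad2 and Cmpk2). Mx1 encodes a dynamin-like GTPase (chr16:97552919-97552978), and whether a working protein is made in these C57BL/6 cells was not measured. On the MEF arrays it read -6.87, -8.76 and -8.33, none of them well above background, and it stood at -0.70, -1.19 and -0.50 on the iHep arrays and -3.64 on the hepatocyte array. It was detected in every iHep and hepatocyte sample. Mx1 was 7.14-fold higher in iHep than in hepatocytes, a call lost without iHep type 1. Against MEF it was at least 43.9-fold higher in iHep and at least 6.15-fold higher in hepatocytes. Its iHep call (limma, adjusted p = 0.0023) is for a fitted change of 6.91, which used MEF readings not well above background, and not for the bound. These bounds hold for the main processing, since normexp correction gave log2 changes of 2.97 in iHep and 1.12 in hepatocytes against MEF, both called. Mx2, its cytoplasmic relative (chr16:97715636-97715695), read -1.68, -3.47 and -3.17 in MEF, 1.24, 1.74 and -0.47 in iHep and 0.98 in hepatocytes. Its changes of 3.34 ± 0.83 in iHep (adjusted p = 0.046) and 3.48 ± 1.12 in hepatocytes (adjusted p = 0.0492) were close to the threshold. Both calls were lost without MEF-1 and without iHep type 1 or 2, and the hepatocyte call without MEF-3 too.

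Isg20, an exonuclease that degrades single-stranded RNA (chr7:78790105-78790164), was raised evenly in iHep. Its levels were -1.44, -1.70 and -1.75 in MEF, 1.61, 1.66 and 1.21 in iHep and -1.43 in hepatocytes. The hepatocyte array again lay beside the MEF arrays. The Isg20 change was 3.08 ± 0.23 against MEF (adjusted p = 0.00195) and 2.93 ± 0.29 against hepatocyte (adjusted p = 0.00164).

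Rsad2 (viperin, an enzyme that makes a chain-terminating nucleotide) and its neighbour Cmpk2 (a mitochondrial nucleotide kinase) were both high in iHep type 2 and in hepatocytes. Rsad2 (chr12:27029262-27029321) read -4.29, -4.67 and -4.48 in MEF, -1.49, 1.1 and -1.96 in iHep and 0.77 in hepatocytes. Cmpk2 (chr12:27065522-27065581) read -3.90, -4.14 and -4.12 in MEF, -1.03, 0.85 and -2.09 in iHep and -0.23 in hepatocytes. For both genes every iHep array lay above every MEF array. In hepatocytes Rsad2 rose by 5.20 ± 1.30 (adjusted p = 0.0234) and Cmpk2 by 3.79 ± 1.18 (adjusted p = 0.045), calls that were both lost without MEF-1, and Cmpk2 was not called without iHep type 1 either. Their iHep changes of 3.65 ± 0.97 and 3.26 ± 0.88 had adjusted p of 0.0538 and 0.0557.

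The Ifit genes encode proteins that bind viral RNA, and none of the 3 was called in either comparison with MEF, although their levels moved a great deal between arrays of 1 kind. Ifit1 (chr19:34715303-34715362) was 0.03 on MEF-1 but -2.35 and -2.09 on MEF-2 and MEF-3, and 1.45, 2.86 and -0.18 on the iHep arrays, with 0.24 in hepatocytes. Ifit3 (chr19:34654612-34654671) read 2.11, 0.47 and 0.53 in MEF, 2.53, 4.09 and 0.56 in iHep and 1.29 in hepatocytes. In both genes iHep type 3 lay below MEF-1. Ifit2 (chr19:34641751-34641810) read -1.2, -1.54 and -1.74 in MEF, -1.01, 0.71 and -1.94 in iHep, and was lowest in hepatocytes at -3.64. The iHep changes were 2.47 ± 1.1 for Ifit1, 1.09 ± 1.13 for Ifit3 and 0.67 ± 0.80 for Ifit2, with adjusted p of 0.172, 0.527 and 0.583.

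Bst2 (tetherin, which holds budding virus at the cell surface, chr8:74463693-74463752) was 4.84 on MEF-1 and 2.85 and 2.90 on the other MEF arrays, 5.37, 5.57 and 4.6 in iHep and 5.76 in hepatocytes. MEF-1 lay inside the iHep range, and the iHep change of 1.32 ± 0.66 was not called (adjusted p = 0.211). Eif2ak2 (PKR, which halts translation), Adar (an RNA editing enzyme) and Ifitm3 (which blocks viral entry) were not called, with changes of -0.09 to 0.52 in iHep and -0.91 to 1.03 in hepatocytes. A dimmer Adar probe gave an iHep difference of 1.74 against 0.52 for the probe used.

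Of the 6 interferon-inducible GTPases, which attack the vacuoles of intracellular parasites and bacteria, 1 rose in iHep (Ifi47) and 3 in hepatocytes (Iigp1, Igtp and Ifi47). Iigp1 (chr18:60517868-60517927) had the largest hepatocyte change of the 40 genes. It read -0.30, -1.66 and -1.54 in MEF, 0.97, 2.75 and -0.01 in iHep and 6.88 in hepatocytes. The hepatocyte array stood far above the other 6 arrays. Iigp1 rose by 7.83 ± 1.21 against MEF (adjusted p = 0.00532, 228-fold), and iHep was 50.02-fold below hepatocyte (adjusted p = 0.0137), while the iHep change against MEF was 2.19 ± 0.90 (adjusted p = 0.147). Igtp (chr11:58023620-58023679) read 1.27, -0.20 and -0.11 in MEF, 2.07, 3.17 and 1.71 in iHep and 4.18 in hepatocytes, with a hepatocyte change of 3.62 ± 0.83 (adjusted p = 0.0183).

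Ifi47 (chr11:48940094-48940153) read -1.99, -2.93 and -2.98 in MEF, -0.69, 0.27 and -0.78 in iHep and 1.5 in hepatocytes, which put the iHep arrays between both other kinds. It rose by 2.07 ± 0.47 in iHep (adjusted p = 0.0351) and by 3.97 ± 0.63 in hepatocytes (adjusted p = 0.00562), with a difference of -1.90 ± 0.59 between iHep and hepatocyte (adjusted p = 0.0477). The first and last of these calls were lost without MEF-1 or iHep type 1, the first also without type 2 and within the iHep slide (1.58, adjusted p = 0.167), and the last without type 3. Gbp3, a guanylate-binding protein (chr3:142510494-142510553), read -0.48, -1.84 and -1.87 in MEF, 0.45, 1.5 and -1.02 in iHep and 0.03 in hepatocytes, and was not called. Its relative Gbp2 was lowest in hepatocytes at -1.79 and was 5.86-fold higher in iHep than there (adjusted p = 0.0146). Irgm1, a regulator of the other immunity-related GTPases, had an iHep change of -0.01 and overlapping levels.

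None of the 3 genes of the ISG15 system and its negative regulators was called in iHep against MEF. Isg15, a ubiquitin-like modifier, read 1.87, 0.05 and -0.05 in MEF, 2.56, 2.98 and 1.25 in iHep and 1.15 in hepatocytes. MEF-1 lay above iHep type 3 and above the hepatocyte array, and the iHep change was 1.33 ± 0.77 (adjusted p = 0.268). The array annotation places this probe at chr17:45870420-45870479 (mm8), whereas RefSeq places the Isg15 gene on chromosome 4, so the signal of a copy elsewhere cannot be told apart. Usp18, which removes ISG15 and damps the receptor, had an iHep change of 1.84 and a hepatocyte change of 2.04, both uncalled. Socs1, an inhibitor of Jak kinases (chr16:10697436-10697495), read 1.84, 0.63 and 0.68 in MEF, 0.39, 0.75 and 0.09 in iHep and -2.65 in hepatocytes. It was the gene that fell in hepatocytes, by -3.90 ± 0.57 (adjusted p = 0.00445), and it was 8.33-fold higher in iHep than in hepatocytes (adjusted p = 0.00883).

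The remaining induced genes with a probe were Ifi35, Ifi44, Parp9 and Parp14, of which 3 rose in iHep and 2 in hepatocytes. Parp14, an ADP-ribosyltransferase (chr16:35752653-35752712), read -0.25, -0.99 and -1.03 in MEF, 1.87, 2.79 and 2.14 in iHep and 3.0 in hepatocytes. It rose by 2.90 ± 0.39 in iHep (adjusted p = 0.00869) and by 3.63 ± 0.52 in hepatocytes (adjusted p = 0.00418). Within the iHep slide the change was 2.52 with an adjusted p of 0.0582. Parp9, a macrodomain protein of the same family (chr16:35891994-35892053), read -0.15, -1.22 and -1.17 in MEF, 0.67, 1.1 and 0.68 in iHep and 1.55 in hepatocytes, and rose by 1.49 ± 0.37 (adjusted p = 0.046) and 2.22 ± 0.50 (adjusted p = 0.0169). The iHep call of Parp9 was lost within the iHep slide and without any 1 of the iHep types. Ifi35, a partner of the regulator Nmi (chr11:101273787-101273846), read 0.98, 0.57 and 0.67 in MEF, 2.11, 2.18 and 2.74 in iHep and 1.93 in hepatocytes. It rose in iHep by 1.54 ± 0.28 (adjusted p = 0.019), a call lost without MEF-1 and within the iHep slide, and the hepatocyte change of 1.13 ± 0.37 had an adjusted p of 0.052. Ifi44 (chr3:151668457-151668516) read -1.66, -3.38 and -3.47 in MEF, 0.36, 0.29 and -1.74 in iHep and -1.28 in hepatocytes, and its changes of 2.18 ± 0.87 and 1.26 ± 1.17 were not called.

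The 3 iHep types differed in the height of the response, and this is a description because each type had 1 array. Type 2 was the highest of the 3 for 33 of 40 genes, where 27.7% of all genes tested were highest in type 2. Type 1 was highest for 3 genes (33.7% of all genes tested) and type 3 for 4 (38.6%), and type 3 was lowest for 28 (40.9%). The types lay over 2-fold apart for 22 of 40 genes, against 25.8% of all genes tested, and the median range over the types was 1.18, against 0.55. The spread was widest for Oasl1 (4.36), Ifit3 (3.53), Rsad2 (3.06), Ifit1 (3.04), Cmpk2 (2.94) and Zbp1 (2.89). It was 0.26 to 0.69 for Oas1a, Oas2, Oas3, Mx1 and Isg20, each of which stood 2.65 or more above MEF-1 in every type.

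Against MEF-1 on the same slide, type 1 was over 2-fold higher for 23 of 40 genes (15.5% of all genes tested), type 2 for 32 (16.7%) and type 3 for 18 (16.5%). Over 2-fold lower were 1 gene in type 1 (16.8% of all genes tested), 1 in type 2 (17.2%) and 4 in type 3 (18.2%). Socs1 was among the lower genes in every type, and in type 3 it was joined by Stat2, Ifit3 and Ifitm3. The median difference from MEF-1 was 1.2, 1.99 and 0.42 in types 1, 2 and 3, against -0.05, -0.09 and -0.06 over all genes tested.

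**Figure D4:**
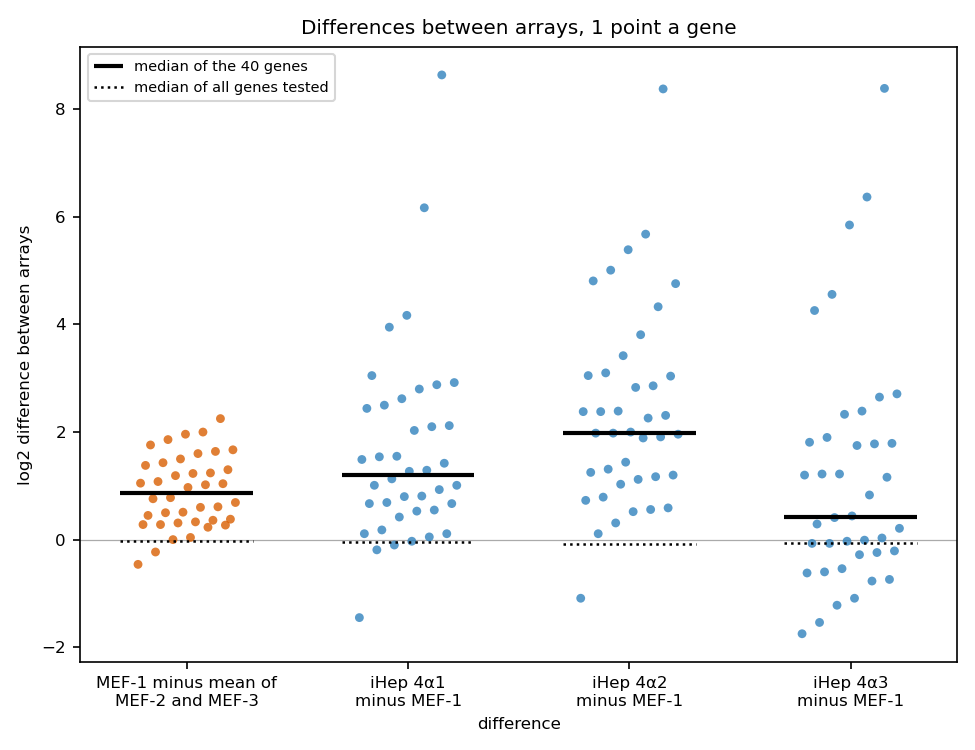
Log2 differences between single arrays for the 40 genes (1 point a gene), with MEF-1 minus the mean of MEF-2 and MEF-3 on the left and each iHep type minus MEF-1 to the right. Solid bars mark the median of the 40 genes (0.88, 1.2, 1.99 and 0.42) and dotted bars the median of all genes tested, which lies near 0 in each column.

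The MEF arrays also differed among themselves in these genes. MEF-1 was above the mean of MEF-2 and MEF-3 for 37 of 40 genes, by a median of 0.88 against -0.02 over all genes tested. It was over 2-fold higher for 19 genes, where 4.85% of all genes tested were, and over 2-fold lower for 0, where 5.80% were. The widest gaps were those of Ifit1 (2.25), Oasl2 (2.0), Bst2 (1.96), Isg15 (1.86) and Ifi44 (1.76). Trim25 (-0.46) and Irgm1 (-0.23) were among the few that were lower on MEF-1. Slide and culture cannot be told apart here, since MEF-1 was the MEF sample on the iHep slide.

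Markers of blood and vessel cells were read beside these values. The summed signal of 16 macrophage markers, each divided by the array's 75th percentile signal, was 71.6 on MEF-1 and 113 on MEF-2 and on MEF-3, 6.96 to 16.7 on the iHep arrays and 24.3 on the hepatocyte array. So it was lower on MEF-1 than on the other MEF arrays and lower in iHep than in MEF. Lyz2 was by far the brightest of the macrophage markers on every MEF array and Cd14 on every iHep array. The sum rests mainly on Lyz2 in MEF and on Cd14 in iHep. Of these markers 13, 15 and 14 were well above background on MEF-1, MEF-2 and MEF-3, 5 to 7 on the iHep arrays and 15 on the hepatocyte array. Of the 15 tested, 1 rose and 9 fell in iHep against MEF. Adgre1 stayed at background in iHep and Lyz2 fell by 7.67 ± 1.14 (adjusted p = 0.0114), whereas Cd14 rose by 4.65 ± 0.47 (adjusted p = 0.00409). Cd14 read -1.0, -1.47 and -1.30 in MEF and 2.61, 3.88 and 3.87 in iHep. Lyz2 read 6.02, 6.67 and 6.67 in MEF and -0.96, 0.39 and -3.42 in iHep. In hepatocytes against MEF, the median change of the 15 was -0.47, but single markers moved both ways. Clec4f was at least 211-fold higher, and Vsig4 (5.78), Cd5l (4.85), Marco (3.60) and Mrc1 (3.26) were up. Lyz2 (-3.80), Cd68 (-3.24), Tyrobp (-1.63) and Cd14 (-1.59) were down. The summed signal, which rests on Lyz2 in MEF, does not show the markers that were up. Other blood cell markers (15) were detected for 5, 10 and 9 on the MEF arrays, 5 or 6 on the iHep arrays and 10 on the hepatocyte array. Their summed signal was 0.387 to 0.796 in MEF, 3.12 to 8.17 in iHep and 1.05 in hepatocytes. Siglech, a marker of the plasmacytoid dendritic cells that secrete interferon, stayed near background on all 7 arrays. Endothelial markers were detected for 6 or 7 of 10 in MEF, 3 in iHep and 10 in hepatocytes, with summed signals of 3.20 to 3.70, 0.319 to 2.36 and 8.17. The part of such cells in the hepatocyte values was not tested.

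Upstream of the response, 38 of 40 listed interferon, receptor and signalling genes had a probe and 35 were tested. In iHep against MEF, 5 rose and 1 fell (10.1% and 13.2% of all genes tested), and the median change was 0.36. In hepatocytes against MEF, 11 rose and 8 fell (28.4% and 25.1% of all genes tested). Among these, and named after its value was seen, was Ifng, the gene of type II interferon. It was well above background on the hepatocyte array alone, at -3.94, and at least 4.997-fold higher there than in MEF. Ifng passed the filter on dim signal through that 1 array, so its call adds no support. Ifnb1, which encodes interferon beta (chr4:87993350-87993409), was well above background on the type 2 iHep array alone, at -4.89, and read -8.60 to -7.59 on the other 6 arrays. Type 2 was also the type in which most of the 40 genes were highest, but each type had 1 array and a link to Ifnb1 was not tested. Ifnb1 was not tested, since it did not pass the filter on dim signal. Ifna1, another type I interferon gene, was also named after its value was seen. It was well above background on MEF-2, MEF-3, iHep types 1 and 3 and the hepatocyte array, but not on type 2, at -6.56. Its change against MEF was 0.36 ± 0.52 in iHep, not called, and 2.90 ± 0.69 in hepatocytes.

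In iHep against MEF, neither chain of the type I receptor was called. The iHep changes were 0.02 ± 0.33 for Ifnar1 and 0.09 ± 0.20 for Ifnar2 (adjusted p = 0.966 and 0.776). In hepatocytes against MEF, the changes were -0.94 ± 0.44 for Ifnar1 and 2.01 ± 0.27 for Ifnar2. The type II receptor chain Ifngr1 rose in iHep by 2.15 ± 0.25 (adjusted p = 0.00615), from 2.99, 3.54 and 3.49 in MEF to 5.39, 5.21 and 5.62. Its partner Ifngr2 had an iHep change of 0.28 ± 0.20 (adjusted p = 0.357). The hepatocyte changes were -0.30 ± 0.34 for Ifngr1 and -1.01 ± 0.27 for Ifngr2. Ifnlr1, the chain that binds type III interferon and is typical of epithelial cells (chr4:134980107-134980166), rose in iHep by 4.26 ± 0.19 (adjusted p = 0.000605). It read -2.78, -2.48 and -2.46 in MEF and 1.57, 1.59 and 1.73 in iHep, and was not well above background in hepatocytes. The 10 markers listed for gut and duct epithelium, such as Cdh1 and Epcam, were all called higher in iHep as well. Their median change against MEF was 10.52 in iHep and 6.86 in hepatocytes (-4.75 to 10.95). Ifnlr1 was at least 8.76-fold lower in hepatocytes than in MEF. A link between these markers and Ifnlr1 was not tested.

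Irf2, a factor that competes with Irf1, rose by 1.39 ± 0.18 (adjusted p = 0.00813), Ikbke, a kinase of Irf3 and Irf7, by 1.55 ± 0.19 (adjusted p = 0.007), and Ptpn6, a phosphatase that damps Jak signalling, by 2.12 ± 0.46 (adjusted p = 0.0323). Tlr7, an endosomal sensor of single-stranded RNA found mainly in blood cells, fell to below background on all iHep arrays. It was at least 6.03-fold lower there than in MEF, and its fitted change was -4.72 (limma, adjusted p = 0.00255). Irf3, the factor that starts interferon beta transcription, had a change of 0.56 ± 0.17 and was not called (adjusted p = 0.0753).

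**Figure D5:**
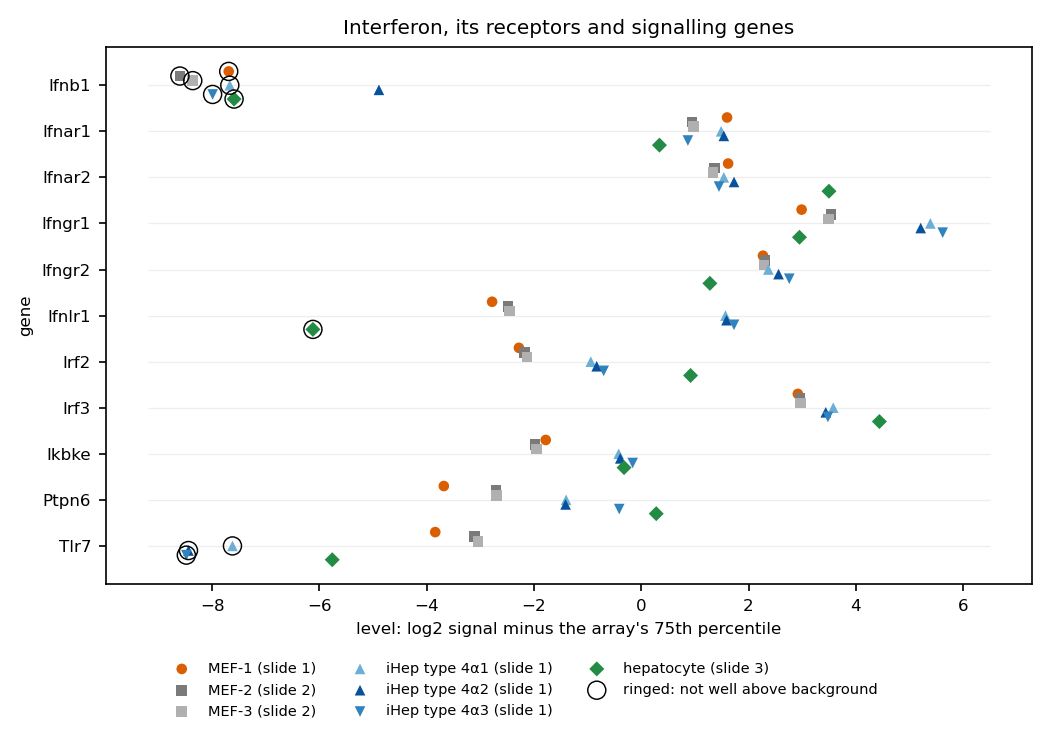
Level (log2 signal minus the array's 75th percentile, horizontal axis) of interferon beta, interferon receptors and signalling genes on the 7 arrays, with rings around arrays not well above background. Ifnb1 has a single unringed point, iHep type 2 at -4.89, and the iHep points of Ifnlr1 and Ifngr1 lie right of all MEF points.

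A second list held 40 other interferon-inducible genes, of which 37 had a probe and 35 were tested. In iHep against MEF, 10 rose and 0 fell (10.1% and 13.2% of all genes tested), and the median change was 1.5. The largest called changes were those of Ifi27l2a (5.94 ± 1.53, adjusted p = 0.0496), Ifitm1 (4.46 ± 0.38, adjusted p = 0.00269), Tgtp1 (4.30 ± 0.74, adjusted p = 0.0171) and Sp100 (3.85 ± 0.48, adjusted p = 0.00709). Ifi27l2a was 6.22 and 5.89 in iHep types 1 and 2 and 1.91 in type 3, against -0.18, -2.36 and -2.34 in MEF. Type 2 was highest for 27 of these 35 genes and MEF-1 was over 2-fold above MEF-2 and MEF-3 for 11 and below for 2. In the signalling list, type 2 was highest for 14 of 35 genes, and MEF-1 was over 2-fold above for 3 and below for 2.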

How the data were processed

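The 7 arrays measured Cy3-labelled RNA from 3 MEF, 3 iHep and 1 hepatocyte samples, grouped by title. Agilent Feature Extraction 9.5.1.1 turned the scans into a background-subtracted intensity per spot, per the file headers and the submitters' processing notes, and these were deposited with no scaling between arrays. Well-above-background, saturation and outlier flags (a unit other than a measurement) are also per the file headers. A table of intensity values processed by the authors was an alternative. How it was made is not given in the sources, its direction was settled by r = 0.9988 to 0.9999 with each array's own scanner log2 signal, and each column's median was 66.4.

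Outlier spots were left out, spots of a probe averaged, and log2 signals set against the 75th percentile of each array. The brightest probe stood for a gene. Genes detected (well above background) on all arrays of 1 or more groups (19135) were fitted with limma 3.58.1 in R 4.3.3 (lmFit, eBayes, 3 residual and 2.02 prior degrees of freedom) in 1 model of 3 groups, with Benjamini-Hochberg adjustment over all of them and calls at an adjusted p under 0.05. The fit was tested on simulated data. Where a group was below background on every array, the fold is a lower bound, and any adjusted p belongs to the fitted change and not to the bound.

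The members, the lists of signalling and other inducible genes and the cell markers were chosen with earlier results of these data known. Values on every array are given for genes called against MEF and for the 4 widest in iHep range and in MEF gap. Outside the members, signalling genes called in iHep against MEF, 7 set genes of that list (1 of them not reported here) and the 4 largest called changes of the other inducible genes are named. Probe positions are those of the array annotation, build mm8. Promoters are RefSeq's, build GRCm38.p6.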

Additional observations from a re-analysis of the deposited data

How the results depend on the processing

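The alternatives were MEF-2 and MEF-3 as separate samples, normexp background correction, quantile or median scaling, the deposited table, no filter or a stricter filter on dim probes, the mean over probes, the iHep slide alone, slide as a random block (correlation 0.113), only the groups compared, and leaving out each sample. Of the values of single genes, 884 kept their direction and side of the threshold, 54 fell short of it, 37 came past it and 9 changed sign. Of the 15 genes higher in iHep against MEF, 7 were called in every alternative that tested them, and of the 16 in hepatocytes, 10. Scaling, background, filter or probe choices ended the calls of Mx2, Oasl2 and Parp9 in iHep, of Cmpk2, Oasl1, Mx2, Zbp1 and Trim25 in hepatocytes, and of Ifi47 between iHep and hepatocyte. Called changes against MEF moved by over 1.5 times with normexp correction for Irf7 (2.96), Mx2 (2.75), Oas2, Oas3 and Mx1 in iHep, and for Zbp1 (3.12), Oasl1 (4.17), Rsad2 (3.87), Cmpk2 (2.6), Irf7 (3.47), Ifi47 (3.28), Mx2 (2.84), Socs1 (-3.22), Oas2 and Mx1 in hepatocytes. With the mean over probes they moved for Dhx58 (1.69), Oas2 (7.44) and Oas3 (5.69) in iHep and for Trim25 (1.09) and Oas2 (1.6) in hepatocytes, and Iigp1 was 7.02 with quantile scaling and 7.01 in the deposited table. Slide 1 alone gave 3.01 for Irf7, 6.07 for Mx1, 2.52 for Mx2, 8.47 for Oas2 and 1.72 for Oasl2 in iHep against MEF. Quantile scaling moved the median of all genes in hepatocytes against MEF from 0.14 to 0.

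The count of 15 became 7 on the iHep slide alone, ranged from 11 to 17 on leaving out a sample, and was 22 with MEF-2 and MEF-3 separate. Over all genes the 1924 higher and 2535 lower calls became 3158 and 4149 with them separate, 2978 and 3883 with the random block, 752 and 917 on the iHep slide alone, and 684 and 958 without MEF-1. Without iHep type 1 they were 1213 and 1656. In hepatocytes against MEF, over all genes, the stricter filter left 3540 higher calls of 5430. The single gene lower in hepatocytes became 2 with MEF-2 and MEF-3 separate, with median scaling, with the stricter filter and with the random block, and 3 with only the groups compared, and leaving out a sample gave 1 to 3. The 3 genes lower in iHep than in hepatocytes became 1 to 4 on leaving out a sample, and 5189 such calls over all genes became 3436 with the stricter filter. The 9 iHep genes higher than hepatocyte became 6 with the stricter filter, which does not test Oas2, Oas3 and Mx1.

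Changes of sign were found for uncalled values alone. Against MEF, Ifit2 in iHep was -0.05 without iHep type 2 (up to 1.27 without type 3). In hepatocytes Oas3 was -0.29 with quantile scaling, -0.04 with median scaling, -0.28 in the deposited table and -0.01 without MEF-2 (up to 0.16 without MEF-1). Oasl2 was 0.32 without MEF-1 (down to -0.72 without MEF-2), and Ifit3 was 0.25 with MEF-2 and MEF-3 separate, 0.21 with the random block and 0.78 without MEF-1 (down to -0.03 without MEF-2). The cause was not tested. No paired analysis was possible because the number of an iHep sample names a type, the MEF numbers name separate preparations, and MEF-2 and MEF-3 were counted as 1 sample. With 7 arrays the number of samples limits the precision.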
